A study of Homo sapiens with 18 samples.

Results

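The alpha-arrestins are adaptor proteins with an arrestin fold that, unlike the beta-arrestins and visual arrestins, carry PPxY motifs in their tails. These motifs bind the WW domains of ubiquitin ligases of the NEDD4 family, so that an alpha-arrestin can bring a ligase to a receptor or transporter in the membrane and direct that cargo to endosomes. TXNIP, the best known of them, binds thioredoxin and lowers glucose uptake, and TXNIP and ARRDC4 are textbook targets of MondoA and ChREBP, the transcription factors that pair with MLX and respond to glucose. ARRDC3 has been linked to the sorting of integrin beta4, and ARRDC1 to the budding of small vesicles together with TSG101.

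The 5 genes described here, ARRDC1, ARRDC2, ARRDC3, ARRDC4 and TXNIP, were 5 of the 63677 rows of the count matrix and were found by matching Ensembl identifiers to symbols. They were chosen by name with results of these data in view, ARRDC3 for its level in the TBX libraries relative to controls, and their differences between TBX and control libraries are therefore given as a description, with standard errors and no p-values. Of the 5 rows, 4 held counts and 1, that of TXNIP, held 0 in every library.

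The data came from NCI-H1299, a human lung adenocarcinoma cell line described by its labels at passages 12 to 14 and grown with fetal bovine serum in low-glucose medium, which the labels call DMEM and the study's methods DMEM-F12. RNA-seq libraries numbered 18, in 6 groups of 3. Cells were transfected for a short time with Lipofectamine and a plasmid for human Flag-tagged TBX2 (TBX2), human HA-tagged TBX3 (TBX3), human Flag-tagged TBX4 (TBX4) or mouse HA-tagged Tbx5 (TBX5), transcription factors of the T-box family that act in lung and limb development. The TBX3 and Tbx5 inserts were carried by pCGN plasmids and the TBX2 and TBX4 inserts by pORF plasmids. The EV group received an empty vector whose backbone was not given in the sources used here, so where a TBX plasmid had another backbone its part and that of the insert cannot be told apart, and the treatment of the group labelled Ctl was not named. All groups share 1 cell line, and transfection reached part of the cells, so a level is an average over transfected and untransfected cells. The RNA came from transfection experiments in which transcripts were measured a day after transfection, and no time was stated for the sequenced RNA itself. In such bulk RNA, fewer cells of a kind and less RNA per cell cannot be told apart. The label of TBX4 replicate c begins with the number of the TBX4 libraries and ends in TBX5, and it was placed in TBX4 by that number; it held 85197 counts of TBX4 and 1 count of TBX5. Nothing says that replicates a, b and c were separate cultures, so p-values measure the spread between these libraries, which may be technical.

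Libraries held 7365221 to 11743179 counts, and 3 counts, taken as the floor of detection, equal 0.255 to 0.407 CPM (counts relative to library size) before scaling. One row, ENSG00000266658, took 10.7% to 53.5% of the counts of a library, so levels are given as CPM on library sizes scaled by edgeR's trimmed mean of M-values (TMM). By library totals in place of TMM, the median log2 fold change over all genes moved to 0.25 in TBX4, -0.31 in TBX5 and 0.20 in EV against Ctl. The line's markers VIM and KRT18 were at 692 to 970 and 43.2 to 75.8 CPM, KRT8 was at 19.3 to 52.7 CPM, and EPCAM was at most at 0.487 CPM. The immune markers PTPRC and CD3E, the fibroblast marker COL1A1 and the lung lineage genes SFTPB, NKX2-1 and SCGB1A1 were at most at 0.649 CPM. Each was at 0 in at least 1 library.

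The promoters of ARRDC3 and ARRDC4 are shown because the RNA of these 2 genes differed most between the groups. RefSeq (GRCh38.p14) gives 8 windows for the 5 genes, each 300 bases long and lying mostly upstream of a transcription start, with 2 windows for ARRDC2, ARRDC3 and TXNIP. Both strands were searched for CACGTG (the core of an E-box, of the kind that MLX and MYC dimers bind), AGGTGT (the core of a T-box site), GTAAACA (the site of FOXO factors) and CCAAT, and matches are in capitals, read 5′ to 3′ on the gene's strand. None of these motifs overlapped another in the sequences printed.
ARRDC3, first start, chr5:91383268-91383567, minus strand: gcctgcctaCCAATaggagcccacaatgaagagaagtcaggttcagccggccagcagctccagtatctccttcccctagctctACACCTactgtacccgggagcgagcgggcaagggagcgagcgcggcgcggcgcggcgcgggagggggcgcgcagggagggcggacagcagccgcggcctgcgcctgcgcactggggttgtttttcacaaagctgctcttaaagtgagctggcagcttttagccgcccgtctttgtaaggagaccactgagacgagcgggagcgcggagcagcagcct
ARRDC3, second start, chr5:91380048-91380347, minus strand: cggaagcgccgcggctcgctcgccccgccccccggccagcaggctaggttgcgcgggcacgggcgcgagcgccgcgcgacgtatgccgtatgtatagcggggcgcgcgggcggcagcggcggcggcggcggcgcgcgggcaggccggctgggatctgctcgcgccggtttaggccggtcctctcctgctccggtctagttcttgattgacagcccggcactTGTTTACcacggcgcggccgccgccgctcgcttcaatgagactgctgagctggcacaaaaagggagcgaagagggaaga
ARRDC4, chr15:97960453-97960752, plus strand: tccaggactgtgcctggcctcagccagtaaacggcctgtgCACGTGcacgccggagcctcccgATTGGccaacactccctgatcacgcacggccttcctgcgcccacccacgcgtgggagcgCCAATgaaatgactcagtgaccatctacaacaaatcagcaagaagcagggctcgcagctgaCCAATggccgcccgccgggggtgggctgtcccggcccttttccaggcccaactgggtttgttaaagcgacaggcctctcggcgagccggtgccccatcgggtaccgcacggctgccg

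The first ARRDC3 window held AGGTGT on the opposite strand, 167 bases before the start, and a CCAAT box 241 bases before it. The second held GTAAACA on the opposite strand, 29 bases before the start. The ARRDC4 window was the only 1 of the 8 with CACGTG, which began 210 bases before the start, and it held 3 CCAAT boxes, at 187, 128 and 67 bases before it. Only exact CACGTG was searched for, so a window without it, such as those of TXNIP, may still hold a variant of the E-box. TXNIP's first window held GTAAACA 124 bases before the start and 2 CCAAT boxes, its second held none of the 4 motifs, and the windows of ARRDC1 and ARRDC2 held no motif other than 1 CCAAT each. Among the 35116 RefSeq windows of this length, 7.26% held CACGTG, 11.4% AGGTGT, 3.42% GTAAACA and 34.6% CCAAT. A match describes letters and is not a binding site, and no binding was measured in these samples.

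Positions are on GRCh37, the build used for counting, but from a later annotation than the one that gave the counts. ARRDC3 (ENSG00000113369) lies on the minus strand at chr5:90664448-90679134 and ARRDC4 (ENSG00000140450) on the plus strand at chr15:98503933-98517063. ARRDC1 (ENSG00000197070) is at chr9:140500137-140509812, ARRDC2 (ENSG00000105643) at chr19:18111941-18124911 and TXNIP (ENSG00000265972) at chr1:145438490-145442635, all on the plus strand. Reads over exons of more than 1 gene were left out of the counts, and the others were counted whatever their strand, so that antisense RNA outside an annotated antisense exon would be counted with the gene. In the later annotation, exons of other genes covered 5.75% of the exon bases of ARRDC1 (among them ARRDC1-AS1), 9.53% of ARRDC2 and 2.91% of ARRDC3 (ARRDC3-AS1), and none of ARRDC4 or TXNIP. Overlaps in the annotation used for counting were not examined, so the bases left out of these counts may differ.

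ARRDC3 was the most abundant of these genes and stood higher in each of the 12 TBX libraries than in any of the 6 controls. The Ctl libraries a, b and c held 42.2, 41.6 and 46.3 CPM and the EV libraries 44.9, 46.9 and 45.3 CPM. The TBX2 libraries held 74.5, 88.1 and 86.0 CPM and the TBX3 libraries 89.0, 105 and 98.8 CPM. The TBX4 libraries held 70.8, 68.7 and 67.0 CPM and the TBX5 libraries 65.5, 82.3 and 90.4 CPM. No TBX group overlapped the controls, and TBX5 was the most spread, with its replicate a below every other TBX library. The share of all genes without such overlap was not counted, so nothing is read from it. Against the 6 pooled controls (44.5 ± 2.17 CPM, SD, n = 6), the log2 fold change of ARRDC3 was 0.90 ± 0.07 (SE) in TBX2, 1.13 ± 0.06 in TBX3, 0.62 ± 0.06 in TBX4 and 0.82 ± 0.08 in TBX5, or 1.86, 2.19, 1.54 and 1.76 times the control level. Counted over all 15576 genes tested, it was the 497th highest log2 fold change in TBX2, the 39th in TBX3, the 468th in TBX4 and the 324th in TBX5.

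ARRDC4, the gene nearest to TXNIP in its known control by glucose, was scarce in controls and differed most with TBX2. The Ctl libraries held 6, 4 and 3 counts (0.588, 0.355 and 0.298 CPM) and the EV libraries 7, 8 and 18 (0.800, 0.859 and 1.15 CPM). The TBX2 libraries held 57, 59 and 43 counts, or 6.55, 5.94 and 6.98 CPM. These were the 3 highest of the 18 libraries. The TBX3 libraries held 1.57, 2.56 and 2.67 CPM, the TBX4 libraries 1.44, 1.25 and 1.76 CPM, and the TBX5 libraries, with 8, 9 and 10 counts, 0.888, 1.79 and 1.86 CPM. TBX2, TBX3 and TBX4 did not overlap the controls, again without a share over all genes to set beside this, and TBX5 replicate a lay among the EV libraries. Against the controls (0.675 ± 0.324 CPM, SD, n = 6), the log2 fold change was 3.17 ± 0.24 (SE) in TBX2, 1.72 ± 0.31 in TBX3, 1.05 ± 0.32 in TBX4 and 0.99 ± 0.41 in TBX5. In linear terms ARRDC4 was at 9.02, 3.29, 2.07 and 1.98 times the control level. It was the 10th highest log2 fold change of all genes in both TBX2 and TBX3, the 115th in TBX4 and the 172nd in TBX5. In EV against Ctl, where it was not called, it was the 17th highest. Whether its few counts bear on these ranks was not tested.

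**Figure D1:**
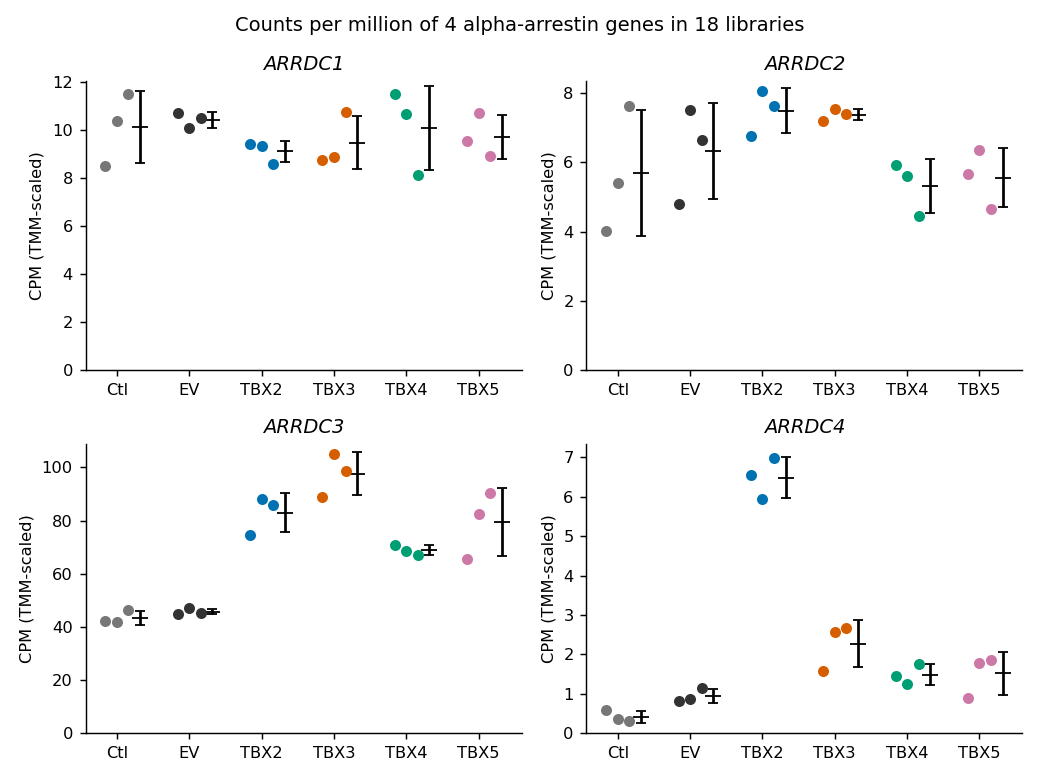
TMM-scaled CPM (y axes, from 0) of ARRDC1, ARRDC2, ARRDC3 and ARRDC4 in each of the 18 libraries by group (x axes), with replicates a, b and c as points from left to right and the mean ± SD of 3 libraries beside them. All 12 TBX libraries lie above the controls for ARRDC3, the 3 TBX2 libraries lie above all others for ARRDC4, and the groups overlap for ARRDC1 and ARRDC2. The share of all genes without such overlap was not counted, so nothing is read from it.

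ARRDC1 and ARRDC2 showed no such differences. ARRDC1, an adaptor of NEDD4 ligases in vesicle budding, was at 8.53 to 11.5 CPM (median 10.5) in the controls. Its TBX libraries held 9.42, 9.36 and 8.60 CPM with TBX2, 8.78, 8.90 and 10.8 with TBX3, 11.5, 10.7 and 8.15 with TBX4, and 9.54, 10.7 and 8.93 with TBX5. Every group overlapped the controls, and its log2 fold changes were -0.17 ± 0.11 (SE), -0.09 ± 0.11, -0.02 ± 0.11 and -0.09 ± 0.12 with TBX2, TBX3, TBX4 and TBX5. ARRDC2, another adaptor of NEDD4 ligases, was at 4.02 to 7.64 CPM (median 6.03) in the controls. It held 6.78, 8.05 and 7.63 CPM with TBX2, 7.21, 7.54 and 7.38 with TBX3, 5.93, 5.60 and 4.44 with TBX4, and 5.66, 6.35 and 4.65 with TBX5. Its log2 fold changes were 0.31 ± 0.17 (SE), 0.29 ± 0.16, -0.18 ± 0.17 and -0.12 ± 0.20, and every TBX group overlapped the controls. By library totals the value with TBX4 was 0.08 for ARRDC2 and 0.24 for ARRDC1, on the other side of 0.

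TXNIP was listed at 0 in all 18 libraries under its current identifier, and no fold or test is given for it. Since reads were counted with an older annotation than the one that pairs identifiers with symbols, reads of this locus may have been counted under another identifier; this was not tested, and the 0 says nothing on whether the cells made TXNIP RNA. ARRDC5, the remaining human alpha-arrestin, which is not among the 5, held 2 counts in Ctl replicate a and 1 each in TBX2 replicate b and TBX4 replicate a, and was below the filter.

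At the study's threshold, a false discovery rate (FDR) of 0.1 over all genes, ARRDC3 and ARRDC4 were the 2 of 4 tested genes called higher in TBX2, TBX3 and TBX4, and ARRDC3 the 1 called higher in TBX5. None was called lower. Of all genes tested, 17.0% were called higher and 15.6% lower with TBX2, 8.47% and 6.40% with TBX3, 6.97% and 6.07% with TBX4, and 6.55% and 6.12% with TBX5. Because the genes were chosen on this comparison and all 4 contrasts use the same 6 controls, nothing is read from these counts. Without TBX4 replicate c the call of ARRDC4 in TBX4 was lost, at a log2 fold change of 0.93. Without TBX5 replicate a or without EV replicate c, ARRDC4 was called in TBX5 too, at 1.37 and 1.29.

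**Figure D2:**
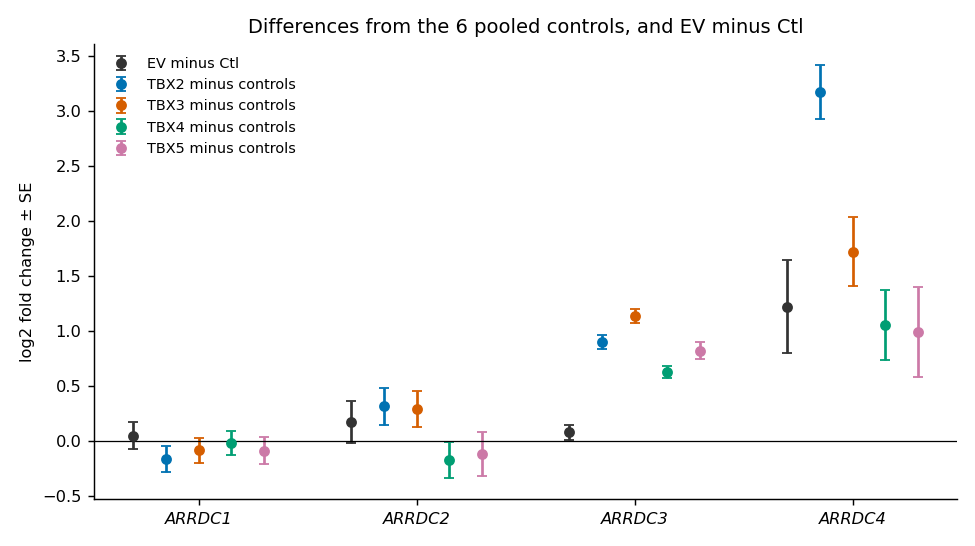
Log2 fold change ± SE (y axis) of ARRDC1, ARRDC2, ARRDC3 and ARRDC4 (x axis) for EV minus Ctl (n = 3 and 3) and for each TBX group minus the 6 pooled controls (n = 3 and 6). ARRDC3 lies between 0.62 and 1.13 in the 4 TBX groups and at 0.08 in EV minus Ctl, while ARRDC4 lies at 3.17 with TBX2 and at 1.22 in EV minus Ctl.

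The choice of genes did not use EV against Ctl, which compares the empty vector with a group whose treatment was not named. None of the 4 tested genes was called by edgeR (quasi-likelihood test, Benjamini-Hochberg adjusted p), where 0.385% of all genes were called in either direction, and 1 of the 4, ARRDC4, had an unadjusted p under 0.05, as did 1432 of all 15576 genes. DESeq2 called none of the 3 to which it gave an adjusted p and found 0 at an unadjusted p under 0.05, against 535 genes in all. ARRDC4 had a mean of 0.936 ± 0.187 CPM in EV and 0.414 ± 0.154 CPM in Ctl (SD, n = 3 each). These libraries did not overlap, but the share of all genes without overlap was not counted. Its log2 fold change was 1.22 ± 0.43 (SE), with an unadjusted p of 0.0089 and an adjusted p of 0.363. ARRDC3 differed by 0.08 ± 0.07 on the log2 scale (adjusted p = 0.782), ARRDC1 by 0.04 ± 0.12 (adjusted p = 0.948) and ARRDC2 by 0.17 ± 0.19 (adjusted p = 0.838).

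The choice of controls moved the values of ARRDC4 more than those of ARRDC3. Against the 3 EV libraries alone, the log2 fold change of ARRDC4 was 2.71 in TBX2, 1.25 in TBX3, 0.58 in TBX4 and 0.52 in TBX5, and the call in TBX4 was lost. Against the 3 Ctl libraries alone it was 3.92, 2.46, 1.80 and 1.73. ARRDC3 was at 0.86, 1.09, 0.59 and 0.78 against EV alone and at 0.93, 1.17, 0.66 and 0.86 against Ctl alone.

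**Figure D3:**
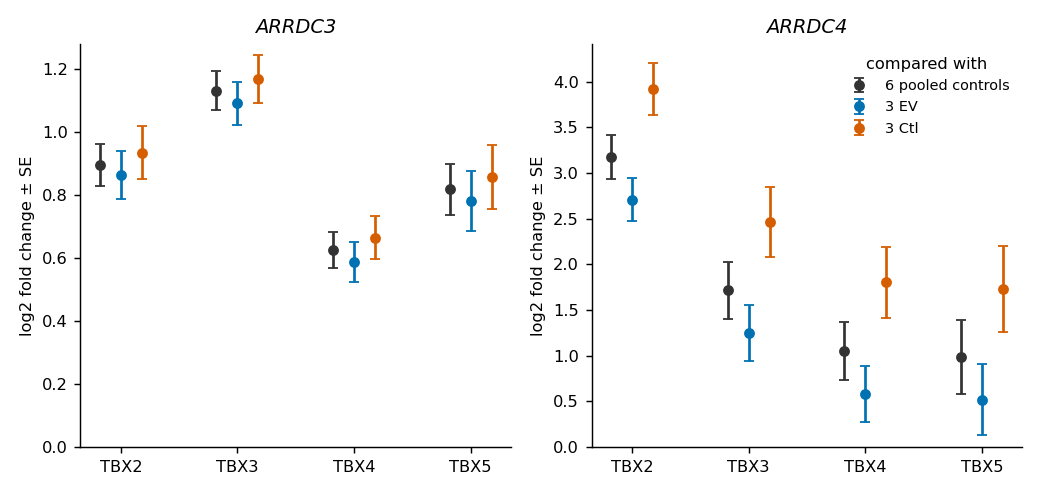
Log2 fold change ± SE (y axes, from 0) of ARRDC3 (left) and ARRDC4 (right) in the 4 TBX groups (x axes) against the 6 pooled controls, the 3 EV libraries or the 3 Ctl libraries. The 3 values of ARRDC3 lie close together in each group, whereas those of ARRDC4 range from 0.58 to 1.80 with TBX4 and from 2.71 to 3.92 with TBX2.

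The 4 TBX groups were then compared with each other, a comparison that uses no control library for its difference. It does use the TBX libraries whose results were in view when the genes were chosen, so its p-values are not independent of that choice. ARRDC4 was higher with TBX2 than with each of the other factors. The log2 difference was 1.46 ± 0.22 (SE) from TBX3 (adjusted p = 2.88e-05), 2.12 ± 0.22 from TBX4 (adjusted p = 9.35e-08) and 2.19 ± 0.26 from TBX5 (adjusted p = 1.18e-06). These 3 calls held under every alternative that kept ARRDC4 in the test. ARRDC4 in TBX3 exceeded TBX4 by 0.66 ± 0.27 (adjusted p = 0.144) and TBX5 by 0.73 ± 0.32 (adjusted p = 0.204), and TBX4 and TBX5 differed by 0.07 ± 0.33 (adjusted p = 0.980), so the order below TBX2 was not resolved. Without TBX3 replicate a the difference between TBX3 and TBX4 was called (adjusted p = 0.0850). Without TBX5 replicate a the difference between TBX3 and TBX5 was 0.36.

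ARRDC3 was highest with TBX3. It exceeded TBX4 by 0.50 ± 0.09 (SE) on the log2 scale (adjusted p = 0.000421), TBX5 by 0.31 ± 0.09 (adjusted p = 0.0377) and TBX2 by 0.24 ± 0.09 (adjusted p = 0.0792, the difference coded as TBX2 minus TBX3 being -0.24). TBX2 exceeded TBX4 by 0.27 ± 0.09 (adjusted p = 0.0544). TBX2 and TBX5 differed by 0.08 ± 0.09 (adjusted p = 0.700), and TBX4 minus TBX5 was -0.19 ± 0.09 (adjusted p = 0.600), so that TBX5 was not separated from either neighbour. The difference of TBX3 from TBX4 was lost under library totals only (adjusted p = 0.692), and the other 3 calls were each lost under library totals and without single libraries. The difference between TBX2 and TBX3 was also lost by DESeq2 (adjusted p = 0.116), in a separate fit of the pair (0.114) and by totals without the most counted gene (0.175), and that between TBX3 and TBX5 in a separate fit (0.116). Among single libraries, it was TBX2 against TBX3 that was lost without TBX2 replicate a (adjusted p = 0.329), TBX3 replicate b (0.262) or TBX3 replicate c (0.169). That between TBX2 and TBX4 was lost without TBX2 replicate b (adjusted p = 0.177), TBX2 replicate c (0.164), TBX4 replicate b (0.136) or TBX4 replicate c (0.133). That between TBX3 and TBX5 was lost without TBX3 replicate b (adjusted p = 0.158) or TBX5 replicate a (0.286, with a log2 difference of 0.17). TBX4 was called lower than TBX5 without TBX5 replicate a (-0.33, adjusted p = 0.0842), and the difference was -0.09 without TBX5 replicate c.

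ARRDC1 and ARRDC2 were called in none of the 6 pairs with the settings used throughout. The largest difference of ARRDC2 was 0.48 ± 0.18 (SE) between TBX2 and TBX4 (adjusted p = 0.107), which was called without Ctl replicate a, Ctl replicate c or EV replicate a (adjusted p = 0.0790, 0.0683 and 0.0949), with at least 10 counts in every library (0.0939) and in a separate fit of the pair (0.0732). The difference of ARRDC2 between TBX3 and TBX4, 0.46 ± 0.18, was called without Ctl replicate c (adjusted p = 0.0883) and in a separate fit (0.0732). ARRDC1 was called in TBX4 minus TBX5 by library totals, at 0.63 (adjusted p = 0.0915). Of all genes, 15.5% differed between TBX2 and TBX3, 12.3% between TBX2 and TBX4, 12.1% between TBX2 and TBX5, 9.97% between TBX3 and TBX4, 7.41% between TBX3 and TBX5 and 0.539% between TBX4 and TBX5. In the last pair none of the 4 genes was called by edgeR or DESeq2, and each tool gave 1 of them an unadjusted p under 0.05, as edgeR did for 1262 genes in all and DESeq2 for 764.

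Per kilobase of exon, the only scale on which levels of different genes are compared here, exon lengths were those of the later annotation. On this scale ARRDC3 led the alpha-arrestins in the controls with 8.93 ± 0.436 CPM per kb (SD, n = 6). ARRDC1 followed with 2.72 ± 0.261, ARRDC2 with 1.29 ± 0.321 and ARRDC4 with 0.166 ± 0.0799 CPM per kb, and the control libraries of these neighbours did not overlap. With TBX2, ARRDC4 was at the level of ARRDC2, at 1.60 ± 0.129 against 1.61 ± 0.140 CPM per kb (SD, n = 3), a pair that did not differ beyond its spread. With TBX3, ARRDC3 reached 19.6 ± 1.62 CPM per kb. Beside the controls' ARRDC3, the Vps26-like protein RGP1 was at 6.86 ± 0.310, the retromer subunit VPS26A at 5.67 ± 1.07, and the beta-arrestin ARRB2 at 4.46 ± 0.376 CPM per kb.

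**Figure D4:**
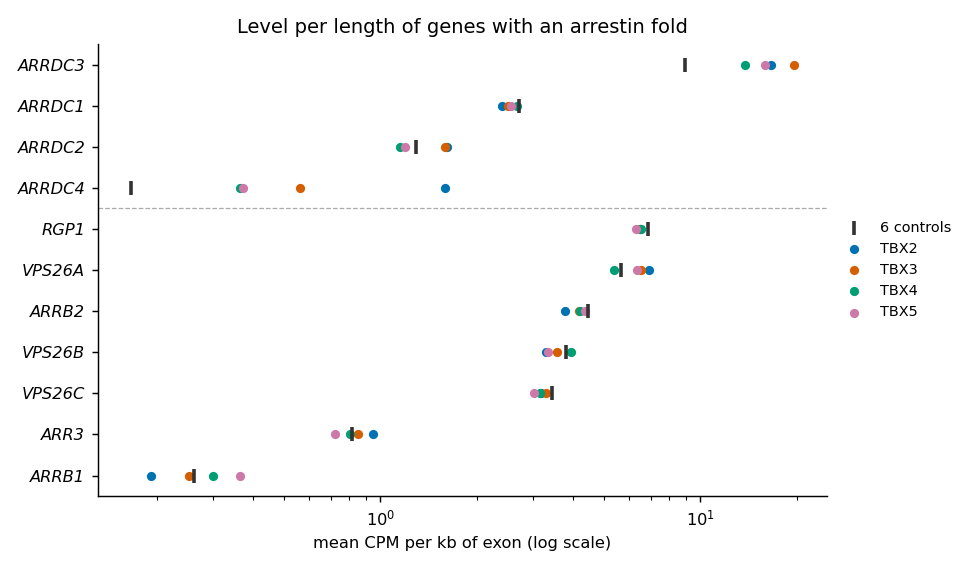
Mean TMM-scaled CPM per kb of exon (x axis, log scale) of 11 genes with an arrestin fold (y axis, alpha-arrestins above the dashed line), in the 6 controls (bars) and in 3 libraries of each TBX group (points). The points of ARRDC3 and ARRDC4 lie to the right of the controls in every TBX group, and those of ARRB2 and RGP1 lie close to them.

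Among the 8 other listed genes with an arrestin fold, 7 were tested and 1 was called in a TBX group. The call was lower with TBX2, where 15.6% of all genes were called lower. VPS26B, a retromer subunit, was at 24.5 ± 1.58 CPM in the controls (SD, n = 6) and at 21.2 ± 0.794 CPM with TBX2 (SD, n = 3), lower by a log2 fold change of -0.20 ± 0.08 (SE, adjusted p = 0.0637). The median log2 fold change of the 7 was -0.11, -0.07, -0.08 and -0.07 in TBX2, TBX3, TBX4 and TBX5, beside -0.0013, -0.0021, -0.0058 and -0.0031 over all genes.

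Of 10 tested NEDD4-family ubiquitin ligases and adaptors, the proteins that alpha-arrestins recruit or work beside, 1 was called higher and 1 lower with TBX2, 2 higher with TBX3, 1 lower with TBX4 and 2 lower with TBX5. Over all genes, 17.0% were called higher and 15.6% lower with TBX2, 8.47% higher with TBX3, 6.07% lower with TBX4 and 6.12% lower with TBX5. SMURF2, a ligase known for its part in TGF-beta receptor turnover, was at 131 ± 7.40 CPM in the controls and fell by 0.23 on the log2 scale with TBX2 (adjusted p = 0.00835) and by 0.28 with TBX5 (adjusted p = 0.00752). With TBX4 it was at -0.22 (adjusted p = 0.0141), which by library totals was 0.04. NEDD4, the ligase that names the family, fell by 0.32 with TBX5 (adjusted p = 0.00351), and SMURF1 rose by 0.20 with TBX3 (adjusted p = 0.0247). By library totals SMURF1 was at 0.11 with TBX3 and by totals without the most counted gene at 0.14, and it was called in neither.

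Of 9 tested partners and cargo linked to ARRDC proteins, 1 rose and 3 fell with TBX2, 1 rose and 1 fell with TBX3, 1 rose and 2 fell with TBX4, and 2 rose with TBX5. The shares over all genes were 17.0% and 15.6%, 8.47% and 6.40%, 6.97% and 6.07%, and 6.55% higher with TBX5. F2R, a thrombin receptor, fell by 0.32 with TBX2 (adjusted p = 0.000913), and NOTCH1 rose by 0.56 with TBX5 (adjusted p = 0.0180).

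Of the known activators of TXNIP and ARRDC4, MondoA and its partner MLX were tested and not called in any TBX group, and MLXIPL, which encodes ChREBP, did not pass the filter on low counts. MLXIP, which encodes MondoA, was at 38.8 ± 4.07 CPM in the controls (SD, n = 6), with log2 fold changes from -0.09 (TBX4) to 0.05 (TBX2) and adjusted p of at least 0.587. MLX was at 14.2 ± 0.759 CPM, with log2 fold changes from 0.04 (TBX5) to 0.15 (TBX2) and adjusted p of at least 0.229. Of the 4 tested genes of this list, 1 was called, MYC, which rose by 0.18 with TBX3 (adjusted p = 0.0724), where 8.47% of all genes were called higher. By library totals MYC was at 0.09 with TBX3 and by totals without the most counted gene at 0.12, and it was called in neither. The activity of MondoA, which depends on sugar phosphates and on its place in the cell, was not measured.

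Of 6 other listed targets of MondoA or ChREBP, 3 were tested. KLF10, a zinc-finger repressor, was at 58.8 ± 3.76 CPM in the controls and 117 ± 9.25 with TBX2. It rose by 0.99 ± 0.07 on the log2 scale with TBX2 (SE, adjusted p = 1.36e-10), by 0.51 ± 0.06 with TBX3 (adjusted p = 4.94e-06) and by 0.34 ± 0.06 with TBX4 (adjusted p = 0.000421). With TBX5 it was at 0.27 ± 0.09 (adjusted p = 0.0749), which by library totals was -0.08 and by totals without the most counted gene was not called. FASN, the fatty acid synthase, went the other way and fell in all 4 groups, by 0.95, 0.37, 0.75 and 0.72 with TBX2, TBX3, TBX4 and TBX5 (adjusted p = 1.03e-05, 0.0277, 8.45e-05 and 0.00078). FASN was also lower in EV than in Ctl, by 0.42 (adjusted p = 0.0494). ACACB, an acetyl-CoA carboxylase, rose by 0.40 with TBX4 (adjusted p = 0.0162).

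Genes of glucose transport and glycolysis, the process that TXNIP and ARRDC4 are known to restrain at the step of uptake, numbered 17, all tested. Of these, 11 fell and 1 rose with TBX2, 9 fell and 1 rose with TBX3, 1 fell and 1 rose with TBX4, and 5 fell and 1 rose with TBX5. The genes that fell were 64.7%, 52.9%, 5.88% and 29.4% of the list, beside 15.6%, 6.40%, 6.07% and 6.12% of all genes. By library totals 2 fell and 1 rose with TBX2, none was called with TBX3 or TBX5, and 1 rose with TBX4. The median log2 fold changes were -0.26, -0.21, -0.06 and -0.17, and by library totals -0.25, -0.29, 0.20 and -0.48. Over all genes, library totals put the medians at 0.0071, -0.079, 0.25 and -0.31. SLC2A1, the glucose transporter GLUT1, was at 37.7 ± 1.59 CPM in the controls (SD, n = 6) and at 25.0 ± 0.865 with TBX2 and 30.2 ± 4.47 with TBX3 (SD, n = 3). Its log2 fold change was -0.59 ± 0.07 (SE, adjusted p = 1.63e-06) with TBX2, -0.29 ± 0.08 (adjusted p = 0.0168) with TBX3, -0.08 ± 0.06 (adjusted p = 0.514) with TBX4 and 0.16 ± 0.07 (adjusted p = 0.178) with TBX5. GPI, which converts glucose 6-phosphate, fell by 0.57 with TBX2 (adjusted p = 2.91e-07), by 0.25 with TBX3 (adjusted p = 0.00570) and by 0.25 with TBX5 (adjusted p = 0.0110). With TBX4 GPI was at -0.16 (adjusted p = 0.0674), and at 0.10 by library totals. The gene that rose in each case was PFKFB3, which makes the activator of phosphofructokinase, by 0.56, 0.41, 0.66 and 1.09 with TBX2, TBX3, TBX4 and TBX5 (adjusted p = 0.00103, 0.0137, 8.45e-05 and 1.02e-06). PFKFB3 also stood higher in EV than in Ctl, by 0.39 ± 0.10 (SE), without being called there (adjusted p = 0.170).

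Among 8 genes of the thioredoxin system and partners of TXNIP, all tested, 4 rose and 1 fell with TBX2, 1 rose and 2 fell with TBX3, 1 rose and 2 fell with TBX4, and 2 fell with TBX5. Of all genes, 17.0% rose and 15.6% fell with TBX2, 8.47% and 6.40% with TBX3, 6.97% and 6.07% with TBX4, and 6.12% fell with TBX5. TXN, the thioredoxin that TXNIP binds, was at 91.4 ± 6.42 CPM in the controls and fell by 0.21 with TBX3 (adjusted p = 0.0481). TXNRD2, the mitochondrial thioredoxin reductase, rose by 0.50 with TBX2 (adjusted p = 0.000408) and fell by 0.27 and 0.32 with TBX4 and TBX5 (adjusted p = 0.0906 and 0.0886). DDIT4, an inhibitor of mTOR signalling that forms a complex with TXNIP, was scarce, at 1.16 ± 0.348 CPM in the controls, and rose by 1.57 ± 0.25 (SE) with TBX2 (adjusted p = 5.65e-05) and by 1.25 ± 0.25 with TBX3 (adjusted p = 0.00197). NLRP3, the inflammasome sensor, fell by 0.58 with TBX3 (adjusted p = 0.0501).

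Alpha-arrestins are also known among the genes that glucocorticoids and FOXO factors induce. Of 6 tested genes, namely 5 that glucocorticoids induce and NR3C1, the glucocorticoid receptor, 2 rose with TBX2, 4 rose and 1 fell with TBX3, 1 rose and 1 fell with TBX4, and 1 rose with TBX5. Of all genes, 17.0% rose with TBX2, 8.47% rose and 6.40% fell with TBX3, 6.97% rose and 6.07% fell with TBX4, and 6.55% rose with TBX5. The 4 that rose with TBX3 include NR3C1, named after its value was seen, at 0.30 (adjusted p = 0.00476). SGK1, a serum- and glucocorticoid-regulated kinase, rose in all 4 groups, by 0.30, 0.50, 0.23 and 0.61 (adjusted p = 0.0240, 0.000825, 0.0894 and 0.000215), and EV exceeded Ctl by 0.34 (adjusted p = 0.0733). PER1, a clock gene, rose by 0.52 with TBX2 (adjusted p = 0.00114) and by 0.40 with TBX3 (adjusted p = 0.00724), and DUSP1, a MAP kinase phosphatase, by 0.85 with TBX3 (adjusted p = 0.000255).

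Of 11 tested FOXO factors and targets, 4 rose in TBX2, 7 in TBX3, 1 in TBX4 and 3 in TBX5, and none fell, where 17.0%, 8.47%, 6.97% and 6.55% of all genes rose. The median log2 fold changes were 0.04, 0.49, 0.15 and 0.22, and by library totals 0.05, 0.40, 0.40 and -0.10. By library totals the medians over all genes were 0.0071, -0.079, 0.25 and -0.31. With that scaling 3, 0, 4 and 0 of the list were called higher. CCNG2, an atypical cyclin of cells leaving the cycle, rose by 0.94, 0.49, 0.77 and 1.06 with TBX2, TBX3, TBX4 and TBX5 (adjusted p = 0.000265, 0.0439, 0.000719 and 0.000184). GADD45A, a stress gene of growth arrest, rose by 1.09 with TBX2 (adjusted p = 4.37e-09) and by 0.49 with TBX3 (adjusted p = 0.00149). FOXO4 rose by 1.12 with TBX2 (adjusted p = 0.00088), by 0.72 with TBX3 (adjusted p = 0.0711) and by 1.00 with TBX5 (adjusted p = 0.0168). Over the 75 tested genes of the 9 lists, 14 rose and 18 fell with TBX2, 18 rose and 14 fell with TBX3, 7 rose and 8 fell with TBX4, and 8 rose and 10 fell with TBX5. By library totals these splits were 7 and 3, 0 and 0, 11 and 1, and 0 and 1. The lists share the controls with the values of ARRDC3 and ARRDC4, and no relation between a list and an alpha-arrestin was tested.

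**Figure D5:**
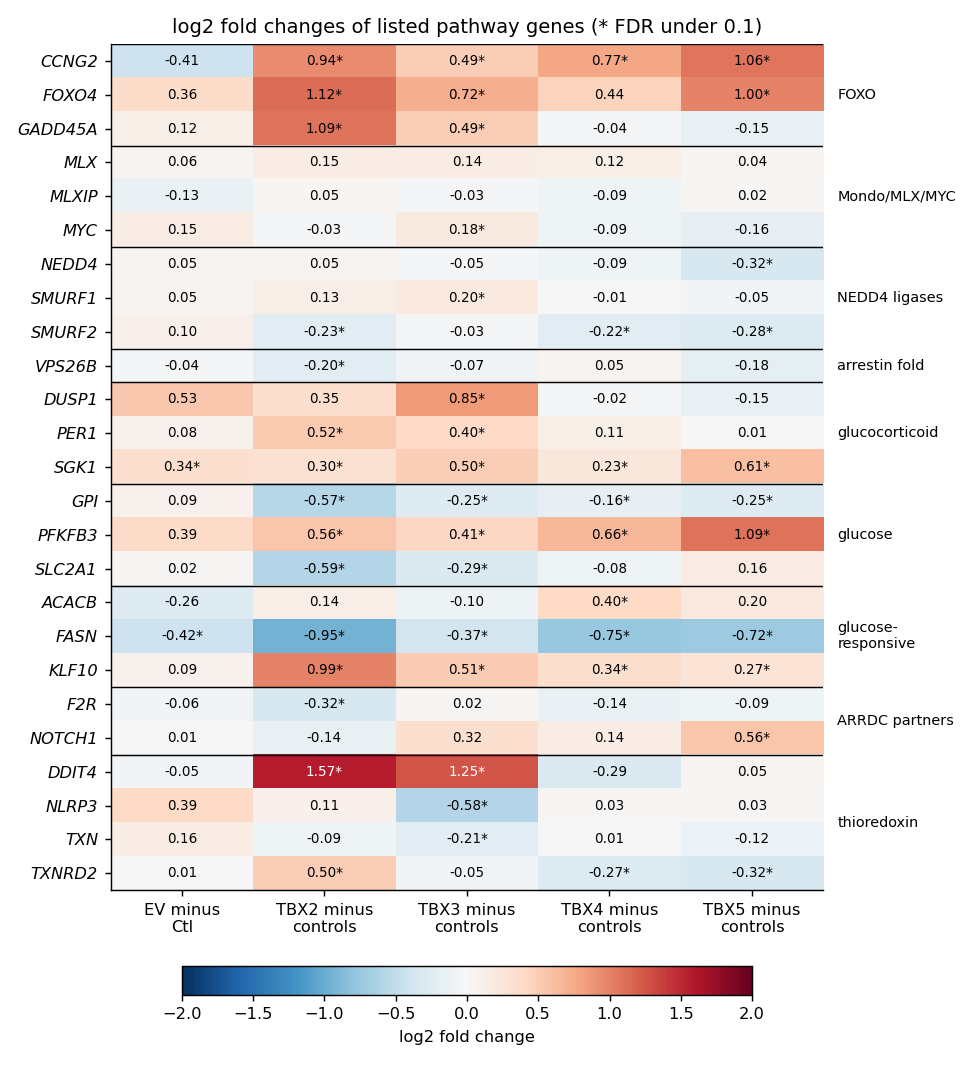
Log2 fold changes (colour and numbers) of 25 pathway genes (rows, grouped by list) in EV minus Ctl and in each TBX group minus the 6 controls (columns), with an asterisk where edgeR's FDR was under 0.1. KLF10, PFKFB3, CCNG2 and SGK1 are called higher and FASN lower in all 4 TBX columns, and the glucose row SLC2A1 is called lower with TBX2 and TBX3. Apart from MLXIP, MLX, SLC2A1 and TXN, rows were picked as called genes with the largest changes, so calls partly follow from the choice. Calls are those with TMM scaling, and that of KLF10 with TBX5 was lost by library totals.

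The genes whose pattern over the 18 libraries was most like that of ARRDC3, by Pearson's r of log2(CPM + 1) among 15182 tested genes with a symbol, were ZNF436 (r = 0.95, Spearman's rho = 0.91), ZNF461 (0.94 and 0.91), TUT7 (0.94 and 0.89), RAB30 (0.92 and 0.85) and SERINC1 (0.92 and 0.92). ZNF461 had log2 fold changes of 0.65, 1.01, 0.47 and 0.54 in TBX2, TBX3, TBX4 and TBX5, and RAB30 of 0.95, 0.92, 0.66 and 0.79. By Spearman's rho 1 of these 5 genes stayed among the 5, and by r over the 6 group means 0 did. For ARRDC4, taken in place of TXNIP after the data were seen, the 5 were RC3H2 (r = 0.97, rho = 0.94), SLC43A2 (0.96 and 0.95), KLF10 (0.95 and 0.90), KDM7A (0.94 and 0.96) and FBXO28 (0.93 and 0.93). KLF10, itself 1 of the listed glucose-responsive genes, had log2 fold changes of 0.99, 0.51, 0.34 and 0.27, in the order of those of ARRDC4. That order largely follows from picking KLF10 by its correlation with ARRDC4. On the same list, FASN fell in every TBX group and ACACB was called with TBX4 only. By Spearman's rho 3 of these 5 stayed among the 5, and by r over group means 0 did. These coefficients are descriptions over libraries that share their groups, depth and scaling, and were picked as the highest of all genes.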

How the data were processed

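RNA-seq was made from TRIzol total RNA of 18 libraries. The authors aligned reads with STAR 2.3.0 to GRCh37 and assigned them to Ensembl genes by featureCounts with default options, which use no strand and leave out reads that overlap more than 1 gene, and deposited raw counts. Identifiers were matched to symbols for 55665 of 63677 rows (87.4%). The 15576 genes above 5 counts in 10 or more libraries were fitted with edgeR 4.0.16 (R 4.3.3; TMM, quasi-likelihood test, Benjamini-Hochberg adjustment, FDR 0.1). Each TBX group was fitted against 6 pooled controls, EV against Ctl alone, and the TBX pairs in 1 fit of all libraries. SE was taken from the F statistic. The scripts were tested on simulated data. DESeq2 1.42.0, other scalings, filters and controls, a replicate block and the omission of single libraries were tried as alternatives. The alpha-arrestins and pathway lists were chosen with earlier results of these data known. From each list the up to 3 called genes with the largest change in any TBX group were named, with MLXIP, MLX, SLC2A1 and TXN whatever their values, and the 5 genes most like ARRDC3 and, since TXNIP was at 0, ARRDC4. Same-lettered libraries did not deviate together (correlations from -0.147 to 0.236 over 45 pairs) and were not treated as pairs. The detection floor covers counting error only. TXNIP gave no value in any test. Of the named genes, 1 is not reported here.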

Additional observations from a re-analysis of the deposited data

Results flagged for a closer look

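The genes were chosen with results of these same TBX libraries in view, which the p-values below do not allow for. In all, 7 log2 differences between TBX groups passed the test of the difference itself (edgeR, quasi-likelihood, Benjamini-Hochberg adjusted). For ARRDC4 these were 1.46 for TBX2 minus TBX3, 2.12 for TBX2 minus TBX4 and 2.19 for TBX2 minus TBX5. Their highest adjusted p over 25 alternatives was 0.00115, 4.52e-05 and 0.000127. For ARRDC3 they were -0.24 for TBX2 minus TBX3, 0.27 for TBX2 minus TBX4, 0.50 for TBX3 minus TBX4 and 0.31 for TBX3 minus TBX5. Over 26 alternatives their adjusted p ranged from 0.0279 to 1.00, from 0.0167 to 0.988, from 1.74e-07 to 0.692 and from 0.00427 to 0.752, with the highest value under library totals in each.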

How the results depend on the processing

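ARRDC3 kept a higher level than the controls in all 4 TBX groups under all 19 alternatives, with log2 fold changes of 0.84 to 0.97 in TBX2, 1.05 to 1.19 in TBX3, 0.59 to 0.88 in TBX4 and 0.48 to 0.96 in TBX5, where 0.88 and 0.48 came from library totals and 0.96 from the fit without TBX5 replicate a; leaving out single libraries gave 0.71 to 0.96 in TBX5. With at least 10 counts in every library, 1 of these genes was called in each of TBX2, TBX3 and TBX4, since ARRDC4 did not pass that filter. DESeq2 called 1 in TBX3, where ARRDC4 had no adjusted p. EV alone as controls gave 1 in TBX4. In TBX5, library totals gave 0, Ctl alone 2 and 1 fit of all 18 libraries 2. Leaving out single libraries gave 1 to 2 in TBX4 and in TBX5. Between TBX groups, library totals gave 4 calls in place of 7, single omissions gave 5 to 9, and ARRDC3 in TBX4 minus TBX5 was then at 0.41 by library totals. Listed pathway genes called by library totals numbered 10 in place of 32 in TBX2, 0 in place of 32 in TBX3 and 1 in place of 18 in TBX5. In TBX4 they numbered 9 in place of 15 at an FDR of 0.05 and against EV alone. Without single libraries they numbered 21 to 30 in TBX3 (21 without TBX3 replicate b), 9 to 14 in TBX4 (9 without replicate b or c) and 11 to 18 in TBX5 (11 without TBX5 replicate c). The cause was not tested. With a replicate block, 2, 2, 2 and 1 of the alpha-arrestins were called in TBX2 to TBX5, 7 differences between TBX groups, and 31, 31, 11 and 17 listed genes. Of the 5 genes most like ARRDC3, 1 stayed by Spearman's rho and 0 over group means. The low counts of ARRDC4 in controls, 3 to 18 a library, limit its precision.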
